A study of Mus musculus with 12 samples.

Results

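The genes described here are 48 members of the programme driven by the transcription factor ATF4 and of the family of cytosolic tRNA synthetases, taken by symbol from the 23234 rows of a table of mouse islet gene expression. They fell into 3 classes by role: 14 stress regulators, 14 enzymes and transporters of amino acids and 20 cytosolic tRNA synthetases. All 48 symbols were found, and 47 reached at least 1 FPKM (sequenced fragments per unit of transcript length and per mapped fragments of the library) in at least 4 libraries and were tested. The remaining member, Cth, is given by its values only.

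Islets are the endocrine cell clusters of the pancreas, and the study compared their gene expression after and before their transplantation into white adipose tissue under the skin of the groin (the inguinal subcutaneous depot). There were 12 libraries in 3 groups of 4: islet grafts recovered 60 days after transplantation, islet grafts recovered 120 days after it, and isolated islets that had not been transplanted. The strain given for every sample was C57BL/6, and no transgene, deletion or drug was given for any group. The labels number the libraries of a group but do not say whether they came from separate animals, so the p-values cover the spread among libraries, whether biological or technical.

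ATF4 is the main effector of the integrated stress response. Kinases that sense unfolded protein, amino acid shortage, heme shortage or double-stranded RNA phosphorylate the initiation factor eIF2, which lowers general protein synthesis while ATF4 mRNA is translated more. ATF4 then raises genes that import and make amino acids, charge tRNAs, and restore or end the response. Much of its control is translational, so the mRNA level of Atf4 does not measure the amount or activity of its protein. Beta cells, which make large amounts of insulin, are known to depend on this pathway for keeping secretory protein synthesis within bounds.

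ATF4 and its C/EBP partners are known to bind an element with the letters TGATGNAA. RefSeq promoter windows (mouse build GRCm38.p6, 250 bases before to 50 bases after each start) were given for 38 of the 48 members and were read on both strands. The element was in 13 of these 38 genes (34.2%), against 1219 of the 27025 genes of the table (4.51%) and 3.97% of all its windows. Many members were listed because they belong to the ATF4 programme. A share above that of all genes may thus be built into the list, and no test was run on it. It was in 5 of 13 regulators, 3 of 12 amino acid genes and 5 of 13 synthetases. The windows below, 60 bases each and written 5′ to 3′ along the gene, show a single copy of the element in capitals, in either orientation. They were chosen to set genes of all 3 classes side by side: Chac1, Trib3, Asns, Aars, Gars, Tars and Yars were lower in day 60 grafts, Pycr1 was higher and Slc7a11 did not pass the test.
Chac1, chr2:119351023-119351082, plus strand: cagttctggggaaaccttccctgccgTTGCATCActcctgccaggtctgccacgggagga
Trib3, chr2:152344036-152344095, minus strand: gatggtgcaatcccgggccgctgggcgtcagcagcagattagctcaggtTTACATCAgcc
Asns, chr6:7693199-7693258, minus strand: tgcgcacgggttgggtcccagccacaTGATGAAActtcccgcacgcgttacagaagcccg
Pycr1, chr11:120643818-120643877, minus strand: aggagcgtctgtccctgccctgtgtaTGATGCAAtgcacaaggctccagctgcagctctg
Slc7a11, chr3:50443646-50443705, minus strand: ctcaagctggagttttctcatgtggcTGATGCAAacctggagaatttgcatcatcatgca
Aars, chr8:111033704-111033763, plus strand: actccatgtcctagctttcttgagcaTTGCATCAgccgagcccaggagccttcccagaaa
Gars, chr6:55037945-55038004, plus strand: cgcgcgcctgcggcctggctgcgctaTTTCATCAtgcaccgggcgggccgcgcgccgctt
Tars, chr15:11399640-11399699, minus strand: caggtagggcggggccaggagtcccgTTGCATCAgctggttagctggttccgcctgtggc
Yars, chr4:129189868-129189927, plus strand: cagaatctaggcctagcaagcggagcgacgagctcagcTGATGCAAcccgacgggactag

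A match describes the letters of a window and is no evidence of binding in these samples. Slc7a11 and Aars each held a second copy. That of Slc7a11 (TTGCATCA) lies in lower case within the window printed above, and that of Aars lies outside its printed window. Among members with a window, the element was in 8 of the 19 that were lower at day 60, 1 of the 3 that were higher and 4 of the 16 others. The windows of Atf4, Ddit3, Ppp1r15a, Sesn2 and Cebpb, all lower at day 60, did not hold these letters.

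The cell content of the libraries differed between groups. None of 18 endocrine reference genes was listed at 0 throughout a group, and their summed level was 4554 to 16440.1 FPKM at day 60, 14609 to 17074 FPKM at day 120 and 11868.5 to 13905 FPKM in isolated islets. RNA of 18 acinar digestive enzyme genes summed to 16.4 to 24.9 FPKM at day 60, 9.93 to 16.0 FPKM at day 120 and 8246 to 95549 FPKM in isolated islets. Of these 18 genes, 5 were listed at 0 in every day 60 graft and 7 in every day 120 graft, Amy2a5, Cpb1 and Ctrc among both sets. A value of 0 in this table can be a failed estimate, since the insulin gene Ins2 was also listed at 0 in all 8 grafts and in isolated islet replicates 1 and 2. The 10 adipocyte genes ran the other way, at 320 to 11474 FPKM at day 60, 285 to 1072 FPKM at day 120 and 38.1 to 47.8 FPKM in isolated islets, and none of them was listed at 0 throughout a group. In such bulk RNA, fewer cells of a type and less RNA per cell cannot be told apart. FPKM carry no total depth, so no counting error can be given.

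A pair of libraries stood apart from their groups. Isolated islet replicate 1 lay at -46.0 on the first principal component of all tested genes, against -91.3 to -86.1 for the other isolated islets and 21.2 to 89.9 for the 8 grafts. Graft day 60 replicate 1 held the most adipocyte (11474 FPKM), fibroblast (5474 FPKM) and macrophage (4556 FPKM) RNA of all 12 libraries and lay at -89.0 on the second component, against -4.61 to 21.7 for the other day 60 grafts. It also held the most red blood cell RNA (28864.5 FPKM) and the least endocrine reference RNA (4554 FPKM) of all 12. The part of each cell type in its member values was not tested. Member calls that changed without either library are given below.

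In all 3 classes more members were lower than higher in grafts. At day 60, 22 of 47 tested members fell and 4 rose past an adjusted p of 0.05, where 12.3% of all 13433 tested genes fell and 31.3% rose (limma on log2(FPKM + 1), 43.7% in either direction). At day 120, 19 fell and 4 rose, where 7.03% of all genes fell and 24.3% rose (31.4% in either direction). The median log2 difference of the regulators was -1.40 at day 60 and -1.77 at day 120, that of the amino acid genes -0.74 and -0.85, and that of the synthetases -0.34 and -0.17. The median over all tested genes was 0.27 at day 60 and 0.30 at day 120, so the members moved against a table in which more genes were higher than lower in grafts. Both comparisons use the same 4 isolated islets.

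**Figure D1:**
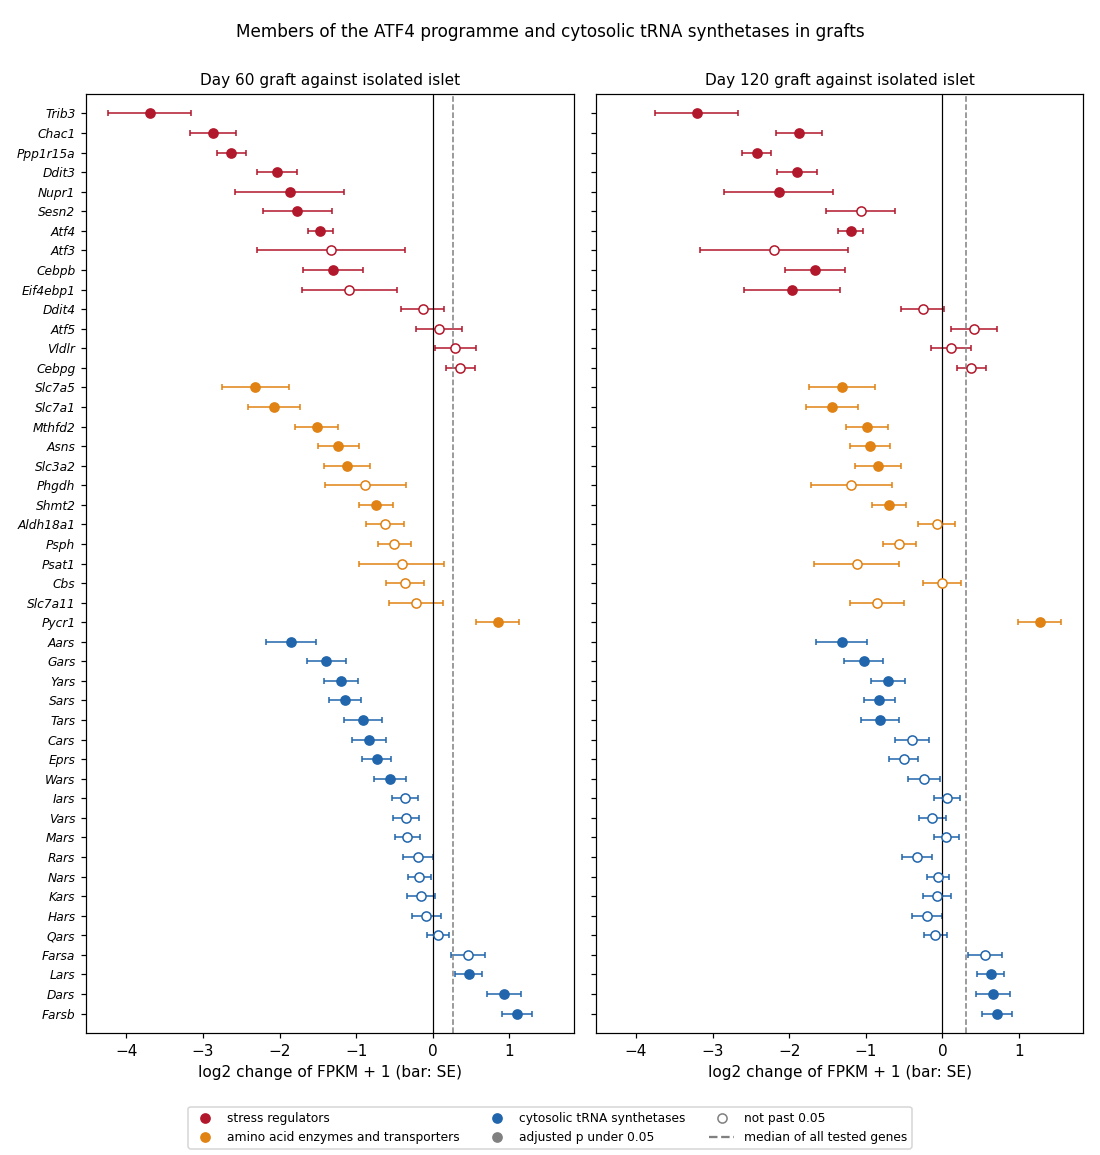
Log2 difference of each of the 47 tested members in day 60 grafts (left) and day 120 grafts (right) against isolated islets on the log2(FPKM + 1) scale, with SE bars from limma, filled where the adjusted p was under 0.05 and coloured by class. The regulators reach -3.70 (Trib3, day 60), the synthetases spread from -1.85 (Aars) to 1.10 (Farsb) at day 60, and the dashed lines mark the median of all tested genes at 0.27 and 0.30.

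The split between higher and lower calls over all genes depended on the scaling between libraries. As deposited, 71.8% of the calls at day 60 and 77.6% at day 120 were higher in grafts. After scaling to the FPKM sum without hormone and acinar genes these shares were 49.6% and 64.9%, after quantile normalization 45.2% and 45.6%, after upper-quartile scaling 60.6% and 63.8%, and after scaling to the endocrine reference genes 90.4% and 34.6%. The median of all genes under these scalings was -0.01 and 0.17, -0.04 and 0.02, 0.13 and 0.17, and 0.61 and 0.03, at day 60 and day 120 in each case. Of the 26 members called at day 60, 12 passed under every setting run: Atf4, Ddit3, Ppp1r15a, Chac1, Trib3, Sesn2, Mthfd2, Slc7a1, Slc7a5 and Aars as lower, Dars and Farsb as higher. Of the 23 called at day 120, 7 did so: Atf4, Ddit3, Ppp1r15a, Chac1, Trib3 and Slc7a1 as lower, and Pycr1 as higher. How many of all called genes passed under every setting was not counted, so these numbers have no background beside them.

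Among the stress regulators, 8 of 14 fell at day 60, 8 of 14 fell at day 120, and none rose. That is 57.1% at each time, where 12.3% and 7.03% of all genes fell and 31.3% and 24.3% rose. Atf4, which encodes the factor at the head of the programme, was at 96.6, 96.1, 110 and 139 FPKM at day 60, at 123, 142, 119 and 147 FPKM at day 120, and at 278, 317, 312 and 312 FPKM in isolated islets. The graft values did not reach those of isolated islets at either time. The log2 difference was -1.47 at day 60 (SE 0.17, adjusted p = 0.000105) and -1.20 at day 120 (SE 0.17, adjusted p = 0.00078). By its median, Atf4 had the highest level of the 48 members at both graft times (103 FPKM at day 60).

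Ppp1r15a encodes GADD34, the subunit that directs protein phosphatase 1 to eIF2. It was at 17.9, 13.5, 15.9 and 26.2 FPKM at day 60, at 19.1, 19.5, 21.0 and 23.8 FPKM at day 120, and at 134, 116, 110 and 104 FPKM in isolated islets. All 8 grafts lay far below all 4 isolated islets, with a log2 difference of -2.63 at day 60 (SE 0.19, adjusted p = 2.19e-06) and -2.42 at day 120 (SE 0.19, adjusted p = 5.55e-06). Within each library the ratio of Ppp1r15a to Atf4, which no scaling between libraries can move, was 0.140 to 0.188 at day 60, 0.137 to 0.176 at day 120 and 0.334 to 0.484 in isolated islets.

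Ddit3 encodes CHOP, a transcription factor tied to cell death under lasting stress. It was at 29.3, 17.5, 18.1 and 20.3 FPKM at day 60, at 25.1, 24.4, 19.1 and 23.6 FPKM at day 120, and at 159, 79.8, 71.1 and 66.5 FPKM in isolated islets. The groups did not overlap, and isolated islet replicate 1 was the highest of all. For Ddit3 the log2 difference was -2.03 at day 60 (SE 0.26, adjusted p = 0.000276) and -1.90 at day 120 (SE 0.26, adjusted p = 0.000763).

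Chac1, whose promoter element is shown above, encodes an enzyme that degrades glutathione. It was at 3.99, 5.29, 2.30 and 3.43 FPKM at day 60, at 8.91, 6.43, 4.78 and 16.1 FPKM at day 120, and at 25.5, 34.9, 40.4 and 32.4 FPKM in isolated islets. No graft reached an isolated islet, and day 120 replicate 4 came nearest. Chac1 had a log2 difference of -2.87 at day 60 (SE 0.30, adjusted p = 6.81e-05) and -1.87 at day 120 (SE 0.30, adjusted p = 0.00221).

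Trib3 encodes a pseudokinase that ATF4 and CHOP induce and that restrains them in turn. It was at 1.51, 0.895, 0.403 and 0.615 FPKM at day 60, at 1.72, 1.19, 0.857 and 2.76 FPKM at day 120, and at 4.37, 36.6, 37.8 and 37.8 FPKM in isolated islets. The groups did not overlap, but isolated islet replicate 1 lay nearer to the grafts than to the other isolated islets, whose median was 8.64 times its level. For Trib3 the log2 difference was -3.70 at day 60 (SE 0.54, adjusted p = 0.000597) and -3.21 at day 120 (SE 0.54, adjusted p = 0.00283), the lowest of all members in both comparisons on this scale.

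**Figure D2:**
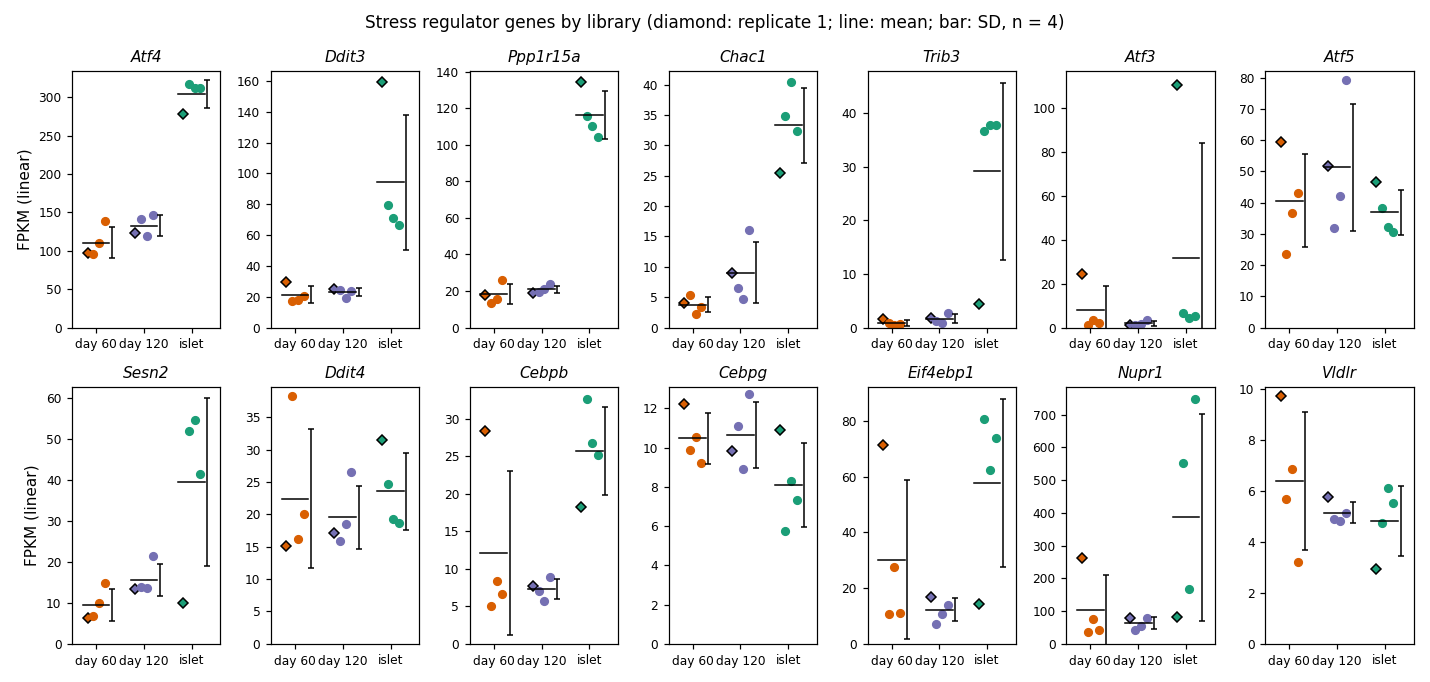
FPKM (linear axes) of the 14 stress regulators in day 60 grafts, day 120 grafts and isolated islets, with 1 point per library, a diamond for replicate 1, a line at the mean and an SD bar (n = 4) that stops at 0 where it would pass it. Atf4, Ddit3, Ppp1r15a and Chac1 separate all grafts from all isolated islets, while the diamonds of isolated islets stand apart for Trib3 (4.37 FPKM), Sesn2 (9.88 FPKM) and Atf3 (110 FPKM).

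The next regulators were less uniform, and their values by library were chosen for printing after they had been seen. Sesn2 encodes a leucine-sensing inhibitor of the growth kinase complex mTORC1, and it was at 6.38, 6.78, 9.92 and 14.9 FPKM at day 60, at 13.4, 13.8, 13.7 and 21.4 FPKM at day 120, and at 9.88, 51.8, 54.5 and 41.3 FPKM in isolated islets. Without isolated islet replicate 1, which lay within the range of the grafts, no graft reached an isolated islet. Sesn2 fell at day 60 (log2 -1.77, SE 0.45, adjusted p = 0.00827), while at day 120 its difference of -1.07 (SE 0.45, adjusted p = 0.0849) did not pass with all libraries and did without isolated islet replicate 1 (log2 -1.62, adjusted p = 0.00088).

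Cebpb, a C/EBP factor that dimerizes with ATF4, was at 28.4, 5.09, 8.40 and 6.68 FPKM at day 60, at 7.70, 7.003, 5.71 and 8.98 FPKM at day 120, and at 18.3, 32.7, 26.8 and 25.3 FPKM in isolated islets. Day 60 replicate 1 stood among the isolated islets, and all other grafts were below them. Cebpb fell at both times (log2 -1.30, SE 0.39, adjusted p = 0.0181 at day 60, and -1.67, SE 0.39, adjusted p = 0.0102 at day 120), though at day 60 it missed the threshold when replicate 2 of either the day 60 grafts (adjusted p = 0.0505) or the isolated islets (adjusted p = 0.0545) was left out.

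Eif4ebp1, which encodes a repressor of cap-dependent translation, and Nupr1, a small stress protein of chromatin, also varied widely within groups. Eif4ebp1 was at 71.3, 10.6, 27.6 and 11.01 FPKM at day 60, at 16.7, 7.11, 10.8 and 13.96 FPKM at day 120, and at 14.2, 80.7, 62.3 and 74.0 FPKM in isolated islets. Both replicates 1 ran against their groups, and the log2 difference was -1.09 at day 60 (SE 0.62, adjusted p = 0.173) and -1.96 at day 120 (SE 0.62, adjusted p = 0.0327). At day 120 it missed the threshold without any of isolated islets 2 to 4 or day 120 grafts 2 to 4 (adjusted p up to 0.0970). With both replicates 1 left out the day 60 log2 difference was -2.20 (adjusted p = 0.00047).

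Nupr1 was at 261, 36.3, 76.8 and 41.3 FPKM at day 60, at 78.9, 42.2, 53.9 and 79.1 FPKM at day 120, and at 81.1, 552, 167 and 747 FPKM in isolated islets. Among isolated islets its order matched that of the acinar genes, which summed to 8246, 73484, 18914 and 95549 FPKM in replicates 1 to 4. The part of acinar RNA in the result was not tested. Nupr1 fell at day 60 (log2 -1.87, SE 0.71, adjusted p = 0.0496) and day 120 (-2.14, SE 0.71, adjusted p = 0.0389), and both calls were lost when isolated islet replicate 2, 3 or 4 was left out (adjusted p up to 0.149). Both were also lost without any single day 120 graft. The day 60 call was lost as well without day 60 replicate 2, 3 or 4, and the day 120 call without day 60 replicate 3. Atf4 was at 278 and 312 FPKM in replicates 1 and 3, which had the least acinar RNA, and at 317 and 312 FPKM in replicates 2 and 4, and Ppp1r15a was at 134 and 110 FPKM and at 116 and 104 FPKM in the same pairs.

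The other regulators did not pass at either time. Atf3, a stress-induced bZIP factor, was at 24.4, 1.06, 3.59 and 2.04 FPKM at day 60, at 1.32, 1.24, 1.79 and 3.499 FPKM at day 120, and at 110, 6.76, 4.49 and 5.11 FPKM in isolated islets. Its highest value in each of the day 60 and isolated islet groups came from replicate 1, the groups of day 120 and isolated islets did not overlap, and the log2 difference was -1.33 at day 60 (SE 0.96, adjusted p = 0.282) and -2.20 at day 120 (SE 0.96, adjusted p = 0.0988). With both replicates 1 left out, Atf3 fell at day 60 (log2 -1.06, adjusted p = 0.0115) and at day 120 (log2 -1.17, adjusted p = 0.00472).

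Atf5, a close relative of Atf4, was at 59.3, 23.4, 36.8 and 42.9 FPKM at day 60, at 51.8, 32.0, 42.2 and 79.4 FPKM at day 120, and at 46.5, 38.2, 32.2 and 30.7 FPKM in isolated islets. These groups overlapped fully (log2 0.08, SE 0.30, adjusted p = 0.848 at day 60). Ddit4, an inhibitor of mTORC1, was at 15.2, 38.4, 16.2 and 20.0 FPKM at day 60, at 17.1, 15.9, 18.6 and 26.6 FPKM at day 120, and at 31.5, 24.7, 19.3 and 18.7 FPKM in isolated islets, with a log2 difference of -0.13 at day 60 (SE 0.28, adjusted p = 0.722). Vldlr, a lipoprotein receptor gene, was at 9.73, 5.68, 6.86 and 3.22 FPKM at day 60, at 5.74, 4.90, 4.82 and 5.13 FPKM at day 120, and at 2.95, 4.75, 6.11 and 5.51 FPKM in isolated islets. It did not pass either (log2 0.29, SE 0.26, adjusted p = 0.383 at day 60). Cebpg, another bZIP partner of ATF4, had a log2 difference of 0.36 at day 60 (adjusted p = 0.135) and 0.38 at day 120 (adjusted p = 0.136).

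Summed over the class without Nupr1, the regulators held 234 to 376 FPKM at day 60, 271 to 385 FPKM at day 120 and 761 to 846 FPKM in isolated islets. This sum did not overlap between grafts and isolated islets, and isolated islet replicate 1 was the highest of its group at 846 FPKM. Atf3 gave 110 FPKM of that sum, against 4.49 to 6.76 FPKM in the other isolated islets. With Nupr1 included, replicate 1 was instead the lowest of its group (927, 1381, 952 and 1508 FPKM in isolated islets 1 to 4). The sums of the other classes put the same library elsewhere, as described next.

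**Figure D3:**
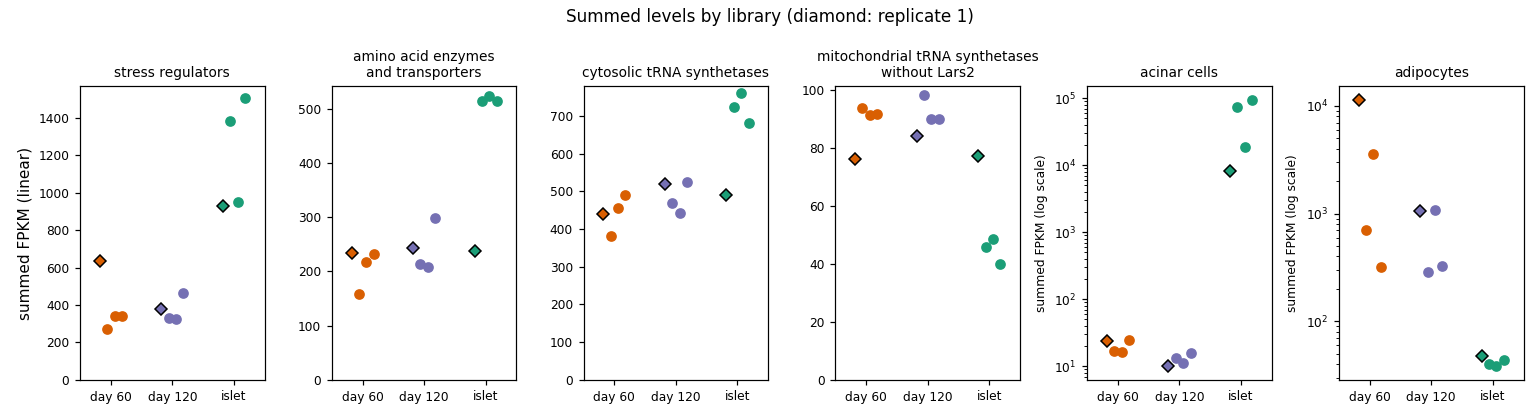
Summed FPKM by library for the 3 member classes, the mitochondrial tRNA synthetases without Lars2, 18 acinar genes and 10 adipocyte genes, in day 60 grafts, day 120 grafts and isolated islets, with a diamond for replicate 1. The first 4 panels have linear axes and the last 2 have log axes. In the amino acid and synthetase panels the diamond of the isolated islets, at 238 and 492 FPKM, lies at the level of the grafts, while the other isolated islets are at 514 to 524 and 681 to 760 FPKM.

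Of the 13 tested enzymes and transporters of amino acids, 6 fell and 1 rose at day 60, and 6 fell and 1 rose at day 120. Thus 46.2% fell and 7.69% rose at each time. For all genes these shares were 12.3% and 31.3% at day 60, and 7.03% and 24.3% at day 120. The largest falls were in membrane transporters. Slc7a5, the LAT1 subunit that carries leucine and other large neutral amino acids, was at 4.94, 9.13, 12.8 and 20.8 FPKM at day 60, at 23.7, 18.7, 16.4 and 33.6 FPKM at day 120, and at 23.7, 80.5, 82.2 and 65.5 FPKM in isolated islets. Isolated islet replicate 1 lay within the range of the day 120 grafts and above all day 60 grafts. The log2 difference was -2.32 at day 60 (SE 0.44, adjusted p = 0.00203) and -1.31 at day 120 (SE 0.44, adjusted p = 0.0384).

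Slc7a1, a carrier of arginine and lysine, was at 1.95, 4.31, 4.67 and 6.18 FPKM at day 60, at 7.65, 6.41, 4.92 and 8.78 FPKM at day 120, and at 9.71, 25.7, 30.1 and 21.6 FPKM in isolated islets. All grafts were below all isolated islets (log2 -2.08, SE 0.34, adjusted p = 0.000974 at day 60, and -1.44, SE 0.34, adjusted p = 0.0102 at day 120). Slc3a2, the heavy chain that LAT1 and other light chains need to reach the membrane, was at 27.8 to 60.4 FPKM at day 60, 42.2 to 69.1 FPKM at day 120, and 53.3 to 117 FPKM in isolated islets. It fell at both times (log2 -1.12, adjusted p = 0.0102 at day 60, and -0.84, adjusted p = 0.0465 at day 120).

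Slc7a11, the cystine carrier that supplies glutathione synthesis, holds the promoter element and did not pass. It was at 8.58, 1.17, 3.82 and 1.89 FPKM at day 60, at 2.04, 1.33, 1.80 and 1.53 FPKM at day 120, and at 3.60, 3.91, 3.98 and 3.70 FPKM in isolated islets. Day 60 replicate 1 was the highest of all, whereas every day 120 graft lay below every isolated islet. The log2 difference of -0.22 at day 60 (SE 0.35, adjusted p = 0.643) and -0.85 at day 120 (SE 0.35, adjusted p = 0.0817) did not pass, and without day 60 replicate 1 both did (log2 -0.62, adjusted p = 0.0446, and -0.85, adjusted p = 0.00825).

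Among the enzymes, asparagine synthetase and the mitochondrial folate enzyme fell. Asns, a standard readout of ATF4, was at 27.9, 31.1, 43.3 and 38.1 FPKM at day 60, at 45.2, 38.1, 36.1 and 52.8 FPKM at day 120, and at 44.8, 99.6, 97.2 and 108 FPKM in isolated islets. Isolated islet replicate 1 lay just above the day 60 grafts and within the day 120 grafts. For Asns the log2 difference was -1.23 at day 60 (SE 0.26, adjusted p = 0.00366) and -0.94 at day 120 (SE 0.26, adjusted p = 0.0199). Mthfd2, the mitochondrial folate enzyme, was at 7.499, 9.39, 10.4 and 12.7 FPKM at day 60, at 14.3, 13.2, 10.2 and 23.7 FPKM at day 120, and at 17.9, 35.3, 34.6 and 36.7 FPKM in isolated islets. Day 60 grafts were below all isolated islets (log2 -1.52, SE 0.28, adjusted p = 0.00171), and day 120 grafts overlapped isolated islet replicate 1 (-0.98, SE 0.28, adjusted p = 0.0200). Shmt2, which makes glycine from serine in mitochondria, fell by 0.74 on the log2 scale at day 60 (adjusted p = 0.0171) and by 0.69 at day 120 (adjusted p = 0.0314), and its day 60 call was lost without isolated islet replicate 2, 3 or 4 (adjusted p up to 0.0580).

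The 3 genes of serine synthesis did not pass with all 12 libraries. Phgdh, the first enzyme, was at 56.3, 10.9, 21.3 and 12.8 FPKM at day 60, at 19.2, 13.6, 12.01 and 22.0 FPKM at day 120, and at 12.6, 52.6, 52.1 and 61.1 FPKM in isolated islets, values chosen for printing after they had been seen. Psat1, the second enzyme, was at 32.8, 6.93, 13.9 and 4.35 FPKM at day 60, at 7.39, 4.50, 5.78 and 8.52 FPKM at day 120, and at 4.72, 19.6, 21.8 and 23.6 FPKM in isolated islets. In both genes day 60 replicate 1 stood with isolated islets 2 to 4 or above them, and isolated islet replicate 1 stood with the other grafts. With both replicates 1 left out, Phgdh (log2 -1.86, adjusted p = 6.90e-05), Psat1 (log2 -1.40, adjusted p = 0.00303) and Psph, the last enzyme (log2 -0.75, adjusted p = 0.00111), all fell at day 60. In the fit of all 12 libraries their log2 differences were -0.88, -0.41 and -0.50 at day 60 (adjusted p = 0.194, 0.572 and 0.0773), and -1.19, -1.12 and -0.56 at day 120 (adjusted p = 0.101, 0.135 and 0.0649). At day 120 all 3 passed without isolated islet replicate 1 (Phgdh -1.70, adjusted p = 0.0110, Psat1 -1.61, adjusted p = 0.0220, and Psph -0.80, adjusted p = 0.00123).

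Pycr1, the last enzyme of proline synthesis, moved the other way. It was at 3.83, 8.01, 8.55 and 12.3 FPKM at day 60, at 8.13, 9.98, 11.99 and 12.7 FPKM at day 120, and at 5.35, 3.55, 3.94 and 2.69 FPKM in isolated islets. Every day 120 graft was above every isolated islet, and day 60 replicate 1 overlapped them. The log2 difference was 0.85 at day 60 (SE 0.28, adjusted p = 0.0273) and 1.27 at day 120 (SE 0.28, adjusted p = 0.00796). The day 60 call was lost without any 1 of isolated islets 2 to 4 or day 60 grafts 2 to 4 (adjusted p up to 0.0846), and after scaling to the sum without hormone and acinar genes (log2 0.58, adjusted p = 0.203).

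Aldh18a1, which starts proline synthesis, did not pass (log2 -0.62, adjusted p = 0.0539 at day 60, and -0.07, adjusted p = 0.835 at day 120). Cbs, of the pathway that makes cysteine from methionine, was at 8.54, 19.5, 21.0 and 21.7 FPKM at day 60, at 20.0, 25.1, 22.8 and 19.4 FPKM at day 120, and at 26.5, 21.4, 18.7 and 21.1 FPKM in isolated islets. Only day 60 replicate 1 was low, and Cbs did not pass (log2 -0.36, SE 0.25, adjusted p = 0.257 at day 60). Cth, the next enzyme of that pathway, had the lowest median of the 48 members in every group, at 0 to 4.32 FPKM, and its highest value was in day 60 replicate 1.

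The count of amino acid genes that fell depended on single libraries more at day 120 than at day 60. Leaving out 1 library at a time gave 5 to 9 at day 60. At day 120 it gave 9 without isolated islet replicate 1, 3 without day 120 replicate 1, and 1 without any of isolated islets 2, 3 and 4 or day 120 grafts 2 and 3. In those 5 fits Slc7a1 passed, and Asns, Mthfd2, Shmt2, Slc7a5 and Slc3a2 did not (adjusted p up to 0.128). The share of all tested genes that fell moved as well. With 1 library left out it was 7.45% to 14.2% at day 60 and 2.96% to 9.81% at day 120. In those 5 fits it was 2.96% to 4.58%, against 7.03% with all libraries.

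**Figure D4:**
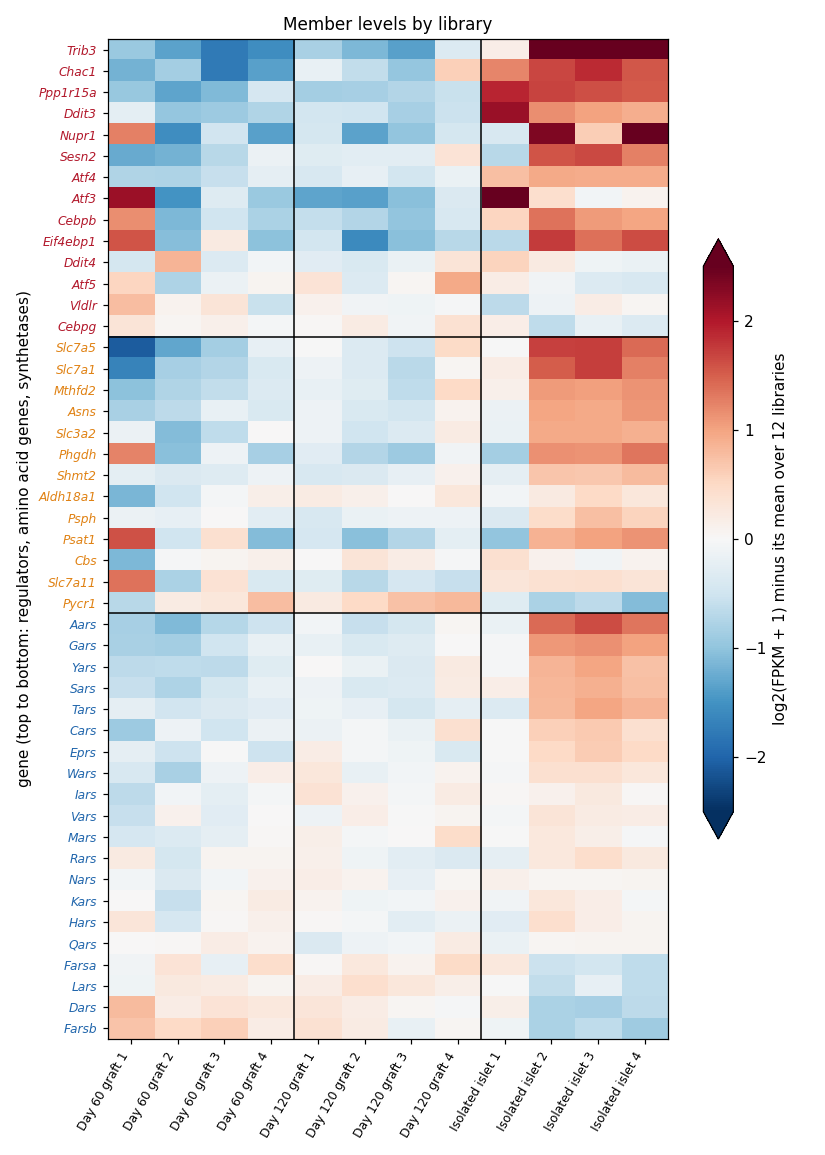
Level of each tested member in each library as log2(FPKM + 1) minus its mean over the 12 libraries, with grafts of day 60, grafts of day 120 and isolated islets from left to right and the 3 classes from top to bottom, coloured over the range -2.5 to 2.5. Isolated islets 2 to 4 are high for most members of all classes, and isolated islet 1 is high for Atf4 (278 FPKM), Ddit3 (159 FPKM) and Ppp1r15a (134 FPKM) but not for most amino acid genes and synthetases.

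The cytosolic tRNA synthetases, which load amino acids onto their tRNAs, split in direction. At day 60, 8 of 20 fell, 3 rose and 9 did not pass. At day 120, 5 fell and 3 rose. Thus 40% fell at day 60 and 25% at day 120, where 12.3% and 7.03% of all genes did. The share that rose, 15% at both times, was below the 31.3% and 24.3% of all genes. The log2 differences at day 60 ran from -1.85 for Aars to 1.10 for Farsb, a span of 2.95 that no scaling between libraries can close.

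Aars, which loads alanine, was at 15.4, 12.6, 16.8 and 19.4 FPKM at day 60, at 26.9, 18.5, 20.5 and 29.3 FPKM at day 120, and at 25.1, 77.0, 89.8 and 72.7 FPKM in isolated islets. Day 60 grafts were below all isolated islets, and day 120 grafts overlapped replicate 1 alone. For Aars the log2 difference was -1.85 at day 60 (SE 0.33, adjusted p = 0.00156) and -1.32 at day 120 (SE 0.33, adjusted p = 0.0131). Gars, which loads glycine in both the cytosol and the mitochondria, was at 35.8, 34.8, 44.9 and 55.9 FPKM at day 60, at 55.6, 48.6, 50.4 and 64.4 FPKM at day 120, and at 62.5, 137, 142 and 129 FPKM in isolated islets. It showed the same arrangement of libraries (log2 -1.39, SE 0.26, adjusted p = 0.00179 at day 60, and -1.03, SE 0.26, adjusted p = 0.0128 at day 120).

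Sars, which loads serine, was at 24.2, 21.1, 26.6 and 32.2 FPKM at day 60, at 33.3, 27.7, 28.4 and 42.3 FPKM at day 120, and at 40.9, 65.8, 68.4 and 61.9 FPKM in isolated islets. Yars, which loads tyrosine, was at 10.0, 10.1, 9.97 and 13.02 FPKM at day 60, at 16.5, 14.5, 12.4 and 19.1 FPKM at day 120, and at 15.9, 30.1, 33.3 and 27.8 FPKM in isolated islets. In both genes the day 60 grafts were below all isolated islets, with log2 differences of -1.15 (Sars, SE 0.21, adjusted p = 0.00163) and -1.20 (Yars, SE 0.22, adjusted p = 0.00179), and both fell at day 120 too (-0.82, adjusted p = 0.0132, and -0.71, adjusted p = 0.0298).

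Cars and Eprs passed at day 60 and not at day 120, while their differences between the 2 times did not pass (adjusted p = 0.495 and 0.642). Cars, which loads cysteine, was at 7.93, 14.2, 10.8 and 13.998 FPKM at day 60, at 14.1, 15.1, 13.9 and 21.1 FPKM at day 120, and at 15.5, 24.2, 25.1 and 21.1 FPKM in isolated islets. Day 60 grafts were below all isolated islets (log2 -0.83, SE 0.22, adjusted p = 0.00982). Eprs, which loads both glutamate and proline, was at 28.4, 22.8, 32.8 and 23.0 FPKM at day 60, at 37.7, 32.0, 30.6 and 25.4 FPKM at day 120, and at 33.1, 47.7, 52.5 and 47.6 FPKM in isolated islets, and its lowest isolated islet, replicate 1, stood just above the highest day 60 graft (log2 -0.73, SE 0.19, adjusted p = 0.00931). At day 120 the differences were -0.40 for Cars (adjusted p = 0.173) and -0.50 for Eprs (adjusted p = 0.0590) with all libraries. Eprs passed at day 120 without isolated islet replicate 1 (log2 -0.64, adjusted p = 0.0128), without day 60 replicate 1 (-0.50, adjusted p = 0.0392) and in the fit of 2 groups (-0.50, adjusted p = 0.0343), and Cars passed with both replicates 1 left out (-0.54, adjusted p = 0.0141). Tars (threonine) fell at both times, by 0.91 on the log2 scale at day 60 (adjusted p = 0.0113) and by 0.82 at day 120 (adjusted p = 0.0269). Wars (tryptophan) fell by 0.56 on the log2 scale at day 60 (adjusted p = 0.0446), a call lost without most single libraries (adjusted p up to 0.114).

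A smaller set rose, a share below that of all genes at both times. Farsb, the beta subunit of the phenylalanine enzyme, was at 24.3, 21.0, 22.5 and 16.7 FPKM at day 60, at 19.2, 16.9, 12.6 and 15.0 FPKM at day 120, and at 13.4, 8.03, 9.05 and 7.42 FPKM in isolated islets. Day 60 grafts were above all isolated islets, and day 120 replicate 3 was below isolated islet replicate 1. The log2 difference was 1.10 at day 60 (SE 0.20, adjusted p = 0.0017) and 0.71 at day 120 (SE 0.20, adjusted p = 0.0202), and the day 120 call was lost without any 1 of isolated islets 2 to 4 or day 120 grafts 1 and 2 (adjusted p up to 0.0712). Farsa, the alpha subunit of the same enzyme, differed by 0.46 at day 60 (SE 0.22, adjusted p = 0.111) and 0.55 at day 120 (SE 0.22, adjusted p = 0.0727), and passed at both times without isolated islet replicate 1 (0.66, adjusted p = 0.0123, and 0.75, adjusted p = 0.0078).

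Dars, which loads aspartate, was at 39.8, 25.7, 28.5 and 27.3 FPKM at day 60, at 28.1, 25.8, 23.2 and 22.0 FPKM at day 120, and at 25.0, 12.6, 12.2 and 13.98 FPKM in isolated islets. Day 60 grafts were above all isolated islets, and 2 day 120 grafts were below isolated islet replicate 1. For Dars the log2 difference was 0.92 at day 60 (SE 0.22, adjusted p = 0.00629) and 0.66 at day 120 (SE 0.22, adjusted p = 0.0403). The day 120 call of Dars was lost without any 1 of isolated islets 2 to 4, day 60 graft 3 or the 4 day 120 grafts (adjusted p up to 0.120). Lars, which loads leucine, was at 16.2, 21.1, 20.5 and 18.4 FPKM at day 60, at 20.3, 23.9, 21.6 and 19.7 FPKM at day 120, and at 17.6, 11.1, 15.2 and 10.9 FPKM in isolated islets. Day 120 grafts were above all isolated islets (log2 0.63, SE 0.17, adjusted p = 0.0192), and the day 60 difference of 0.47 (SE 0.17, adjusted p = 0.0442) was lost without most single libraries (adjusted p up to 0.137). The rise of Lars and, at day 120, of Dars and Farsb was also lost when libraries were scaled to the sum without hormone and acinar genes (Lars 0.14 and 0.48, Dars 0.50 and Farsb 0.57 on the log2 scale).

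Because a ratio of genes within a library is free of such scaling, Aars was set over Dars in each library. Both genes had already been called, in opposite directions, so a separation of the groups was built into this choice. The ratio was 0.387, 0.490, 0.589 and 0.711 at day 60, 0.957, 0.720, 0.884 and 1.33 at day 120, and 1.00, 6.09, 7.34 and 5.20 in isolated islets. Isolated islets 2 to 4 stood far above every graft, and isolated islet replicate 1 stood among the day 120 grafts.

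The remaining synthetases did not pass at either time. Qars (glutamine) was at 23.3, 23.7, 26.2 and 24.6 FPKM at day 60, at 17.9, 21.0, 22.1 and 26.8 FPKM at day 120, and at 20.6, 24.0, 24.3 and 24.3 FPKM in isolated islets. Kars (lysine) was at 37.3, 24.5, 38.4 and 43.0 FPKM at day 60, at 39.7, 34.6, 35.6 and 40.2 FPKM at day 120, and at 34.7, 45.2, 42.1 and 35.8 FPKM in isolated islets. Hars (histidine) was at 21.7, 12.7, 17.8 and 19.2 FPKM at day 60, at 17.8, 16.8, 14.3 and 15.7 FPKM at day 120, and at 14.1, 23.7, 19.8 and 18.2 FPKM in isolated islets. The groups overlapped in all 3 genes, with log2 differences of 0.07, -0.16 and -0.08 at day 60 (adjusted p = 0.73, 0.499 and 0.746, SE 0.15 to 0.19). Iars, Vars, Mars, Rars and Nars had log2 differences of -0.36 to -0.17 at day 60 and -0.33 to 0.06 at day 120.

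The synthetases can also be grouped by whether their proteins sit in the multi-synthetase complex, an assembly known from mammalian cells, a grouping chosen after the values had been seen and given with no test. Of its 8 enzymes, Eprs fell, Dars and Lars rose and 5 did not pass at day 60, with a median log2 difference of -0.18. Of the 12 genes outside it, Aars, Cars, Gars, Sars, Tars, Wars and Yars fell, Farsb rose and 4 did not pass, with a median of -0.69. At day 120, with all libraries, none of the 8 fell and 5 of the 12 did. Among all genes, 12.3% fell and 31.3% rose at day 60, and 7.03% fell and 24.3% rose at day 120. The 3 scaffold genes of the complex did not fall: Eef1e1 rose at both times (log2 0.99, adjusted p = 0.0151 at day 60, and 0.95, adjusted p = 0.0263 at day 120), and Aimp1 and Aimp2 did not pass.

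The count of synthetases that fell was 7 to 8 at day 60 when 1 library at a time was left out. At day 120 it was 3 without isolated islet 2, 3 or 4 or day 120 graft 2 or 3, where Aars, Gars and Sars passed and Tars and Yars did not (adjusted p up to 0.0958). Among all tested genes, 2.96% to 4.58% fell in those fits, against 7.03% with all libraries. The count of all members that rose at day 60 was 2, not 4, without any 1 of isolated islets 2 to 4 or day 60 grafts 2 to 4. At day 120 it was 1 without isolated islet 2 or 4 or day 120 graft 2, and 2 without isolated islet 3 or day 120 graft 1. The share of all tested genes that rose was 22.7% to 30.5% in these day 60 fits, against 31.3% with all libraries. In these day 120 fits that share was 10.4% to 18.6%, against 24.3%.

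The groups can be set against each other without a model. In 16 of 47 members every day 60 graft lay below every isolated islet, where 9.01% of all tested genes did so, and in 2 (Farsb and Dars) every day 60 graft lay above, where 22.0% did so. At day 120 these numbers were 10 (7.24% of all genes) and 2 (28.3%, Pycr1 and Lars). Of the 10, 8 were regulators and 2 were amino acid genes (Slc7a1 and Slc7a11), and no synthetase was among them.

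For many members the isolated islet nearest to the grafts was replicate 1. It was the lowest isolated islet for 32 of 47 members (68.1%), where it was the lowest for 28.5% of all tested genes. It lay at least 1 log2 unit below the median of the other isolated islets for 13 members (27.7%, against 3.54% of all genes). For 22 members it lay within the range of the 8 grafts while none of the other isolated islets did, as was so for 3011 of the 13433 tested genes. By class, it was the lowest isolated islet for 8 of 14 regulators, 11 of 13 amino acid genes and 13 of 20 synthetases.

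Within the regulators this library was not low throughout. Its Atf4 was 0.890 of the median of the other isolated islets, and its Ppp1r15a (134 FPKM) and Ddit3 (159 FPKM) were the highest of the group. The median of the others was 5.25 times its level for Sesn2, 4.61 times for Psat1, 4.18 times for Phgdh, 3.40 times for Slc7a5 and 3.07 times for Aars. Asns over Atf4 was 0.161 in this library, against 0.312 to 0.345 in the other isolated islets and 0.269 to 0.392 in the 8 grafts. Replicate 1 also held the least acinar RNA of the isolated islets (8246 FPKM, against 18914 FPKM in replicate 3 and 73484 and 95549 FPKM in replicates 2 and 4), and the part of acinar RNA in these differences was not tested. Which sample handling or culture each isolated islet library had was not stated in the labels, and the cause of its difference was not tested.

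**Figure D5:**
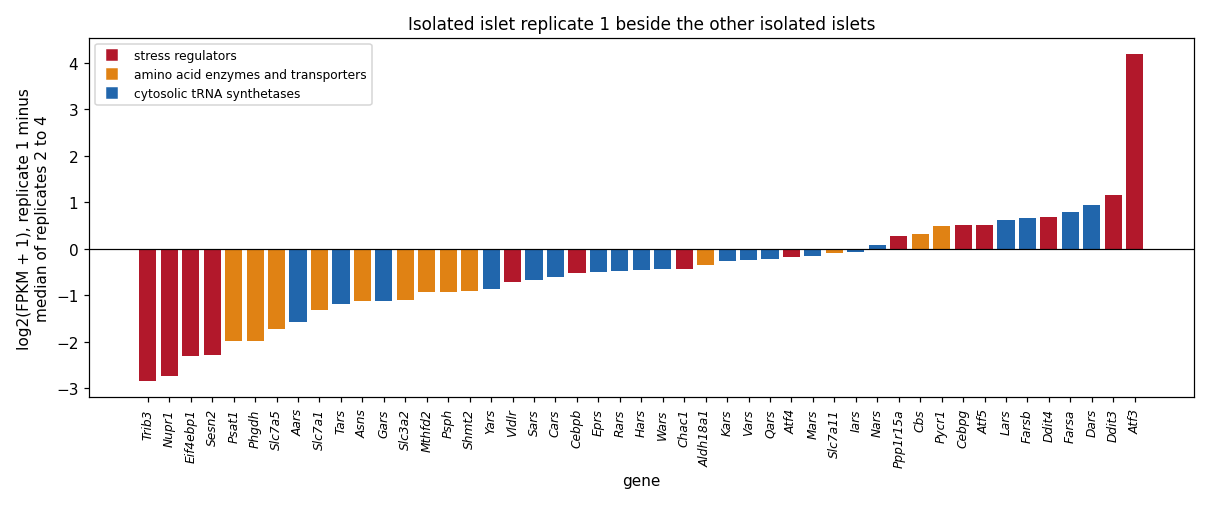
Difference in log2(FPKM + 1) between isolated islet replicate 1 and the median of isolated islet replicates 2 to 4 for each tested member (bars, 1 per gene, coloured by class). The bars run from Trib3 and Nupr1 at the low end to Ddit3 and Atf3 at the high end (110 FPKM for Atf3 in replicate 1), with 32 of 47 members lowest in replicate 1.

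Without isolated islet replicate 1, 9 regulators, 9 amino acid genes and 8 synthetases fell at day 60 and 6 members rose. At day 120, 9, 9 and 6 fell and 6 rose. In the same fit 14.2% of all genes fell and 37.3% rose at day 60, and 9.81% fell and 31.6% rose at day 120. The calls added at day 60 were Cebpg (higher), Eif4ebp1, Phgdh, Psph, Aldh18a1 and Farsa (higher), and no call was lost. Those added at day 120 were Cebpg (higher, log2 0.52, adjusted p = 0.0286), Sesn2, Phgdh, Psat1, Psph, Eprs and Farsa (higher), again with none lost. Without day 60 replicate 1, Eif4ebp1 (log2 -1.63, adjusted p = 0.0390), Phgdh (-1.35, adjusted p = 0.0354) and Slc7a11 were added at day 60 and Wars was lost (-0.53, adjusted p = 0.0632), while Phgdh (adjusted p = 0.0442), Psph (adjusted p = 0.0490), Slc7a11 and Eprs were added at day 120. Without both replicates 1, Rars also fell at day 120 (log2 -0.47, adjusted p = 0.0274).

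Upstream of ATF4, 4 of 18 genes of eIF2 kinases, eIF2, its exchange factor eIF2B and its phosphatases fell and 4 rose at day 60 (median log2 0.15), where 12.3% of all genes fell and 31.3% rose. At day 120, 2 fell and 4 rose (median 0.03), where 7.03% and 24.3% of all genes did. Eif2ak3, which encodes the kinase PERK that senses unfolded protein, was at 7.27, 15.4, 12.1 and 16.5 FPKM at day 60, at 19.2, 19.3, 14.7 and 15.6 FPKM at day 120, and at 23.8, 39.7, 35.1 and 31.5 FPKM in isolated islets. All grafts were below all isolated islets (log2 -1.31, SE 0.24, adjusted p = 0.00166 at day 60, and -0.87, SE 0.24, adjusted p = 0.0184 at day 120). Ppp1r15b, which encodes the constitutive alternative to GADD34 as the subunit that directs the phosphatase to eIF2, fell by 1.07 on the log2 scale at day 60 (SE 0.15, adjusted p = 0.000545). Nck1, an adaptor protein, rose by 1.17 on that scale (SE 0.26, adjusted p = 0.00439).

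Of 24 other genes tied to the ATF4 pathway, 21 were tested, and 11 fell and 3 rose at day 60 (median log2 -0.68), while 5 fell and 0 rose at day 120 (median -0.41). Over all tested genes, 12.3% fell and 31.3% rose at day 60, and 7.03% fell and 24.3% rose at day 120. Trib1, a relative of Trib3, was at 8.55, 8.32, 5.28 and 9.93 FPKM at day 60, at 7.91, 8.72, 9.32 and 15.3 FPKM at day 120, and at 38.5, 43.8, 39.9 and 33.3 FPKM in isolated islets. It separated the groups without exception, and isolated islet replicate 1 lay within its group (log2 -2.17, SE 0.22, adjusted p = 4.64e-05 at day 60). Sqstm1, the autophagy receptor p62, fell by 1.87 on the log2 scale (SE 0.29, adjusted p = 0.00083), and Herpud1, of the disposal of misfolded proteins of the endoplasmic reticulum, fell by 1.84 (SE 0.32, adjusted p = 0.00128). Slc1a5, a glutamine carrier named for its size after its values were seen, rose at day 60 by 3.09 on the log2 scale (SE 0.54, adjusted p = 0.00149) and stood at 130, 26.7, 55.1 and 11.6 FPKM at day 60, 11.5, 7.70, 17.5 and 14.6 FPKM at day 120 and 2.81 to 4.74 FPKM in isolated islets. Its highest grafts, day 60 replicates 1 and 3, were also those with the most adipocyte RNA (11474 and 3555 FPKM), and the part of host tissue in this result was not tested.

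In the neighbouring branch of the unfolded protein response, with genes induced by ATF6 and XBP1, 8 of 18 fell and 3 rose at day 60 (median log2 -0.23), and 3 fell and 3 rose at day 120 (median -0.13), against the same shares of all genes. Hspa5, the chaperone BiP, was at 414, 365, 904 and 634 FPKM at day 60, at 637, 644, 618 and 483 FPKM at day 120, and at 1925, 3084, 2671 and 2473 FPKM in isolated islets. No graft reached an isolated islet (log2 -2.20, SE 0.28, adjusted p = 0.000251 at day 60, and -2.08, SE 0.28, adjusted p = 0.000638 at day 120). Sel1l, of the same disposal pathway as Herpud1, fell by 1.25 on the log2 scale at day 60 (SE 0.26, adjusted p = 0.0031), and Xbp1 itself fell by 0.74 (SE 0.18, adjusted p = 0.00713). Dnajc10, a disulfide reductase of the endoplasmic reticulum, rose by 1.15 on the log2 scale (SE 0.19, adjusted p = 0.000916).

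The mitochondrial tRNA synthetases are mostly encoded by genes of their own. Of 16 tested, none fell at either time, 6 rose at day 60 (median log2 0.48) and 8 rose at day 120 (median 0.55), against background shares of 31.3% and 24.3% higher among all genes. Cars2 rose by 1.28 on the log2 scale at day 60 (SE 0.27, adjusted p = 0.00365) and Tars2 by 0.73 (SE 0.18, adjusted p = 0.00682). Lars2 was left out of sums, since it ran from 17.4 to 660 FPKM in an order that did not follow the groups. The summed level of cytosolic over mitochondrial synthetases within each library was 5.75, 4.07, 4.98 and 5.36 at day 60, 6.19, 4.77, 4.91 and 5.80 at day 120, and 6.37, 15.8, 15.6 and 17.0 in isolated islets. Isolated islet replicate 1 again stood close to the grafts, and it was the highest isolated islet for 14 of the 16 mitochondrial genes, where it was the highest for 49.2% of all tested genes.

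Between the grafts, no member passed at day 120 against day 60, where 0.0149% of all tested genes did so (limma, 0.00744% higher and 0.00744% lower). At an unadjusted p under 0.05 there were 6 of 47 members, where 10.1% of all genes were past it. The median log2 difference of the members was 0.21, against 0.03 over all genes, and its sign turned with the scaling: after scaling to the endocrine reference genes the medians were -0.62 for regulators, -0.42 for amino acid genes and -0.51 for synthetases. The largest differences were in Slc7a5 (log2 1.00, SE 0.44, adjusted p = 0.49) and Chac1 (log2 1.00, SE 0.30, adjusted p = 0.49), both higher at day 120, and in Eif4ebp1 (log2 -0.88, SE 0.62, adjusted p = 0.581). The 2 graft groups overlapped in every tested member, where 2.91% of all genes were higher and 1.38% lower at day 120 without overlap. These values come from the fit without pairing. A paired fit, with the replicate number as a block, also called 0 members. With weights that count variable libraries less, estimated gene by gene, Chac1 alone of the members passed (log2 1.18, adjusted p = 0.0358), where 2.62% of all genes were lower and 0.797% higher.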

How the data were processed

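RNA of 12 libraries (4 of each group) was amplified from 10 ng of total RNA with SMARTer Ultra Low Input v3, built into libraries with a NEBNext ChIP-seq kit and sequenced on a HiSeq 1500, per the labels' protocols. These kits do not mark strand, so antisense transcripts are not told apart. The authors deposited FPKM per gene symbol, made with TopHat2, Cufflinks 2.1.1 and build mm9, per the submitters' processing notes. The annotation and options are not given in the sources used here. Values at 0 can be failed estimates.

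From these, log2(FPKM + 1) of the 13433 genes with at least 1 FPKM in at least 4 libraries was fitted with limma 3.58.1 (R 4.3.3, statmod 1.5.0) in a model of the 3 groups over all 12 libraries, using a mean-variance trend and robust variances. The two-sided p-values were adjusted by Benjamini-Hochberg over the 13433 genes, at a threshold of 0.05. The procedure was tested on simulated data. Fold changes of low genes are understated by the pseudocount of 1.

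Members, gene lists and rules were chosen with earlier results of these data known. Values by library are given for up to 8 called members per class with separate groups (smallest p at day 60), the 3 with the largest p, those that rose, and named pathway genes. Same-numbered day 60 and day 120 grafts deviated together (correlations of 0.18 to 0.442), so a fit with the replicate number as a block was also run. The main fit, from which the printed values between grafts come, did not use this pairing. Same-numbered grafts and isolated islets did not deviate together (-0.0784 to 0.0199). The alternatives tried were other pseudocounts, filters, scalings, library weights, variance settings, fits of 2 groups and leaving out libraries. A gene picked by the rule for named genes is not reported here.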

Additional observations from a re-analysis of the deposited data

Results flagged for a closer look

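In 141 groups of 4 values (47 members in 3 groups), 19 held a highest or lowest library set apart from the others by Dixon's gap test at the 95% level, which chance alone trips in about 1 group in 20. That rate assumes normal values, and the same count over all tested genes was not made, so the 19 have no background beside them. Isolated islet replicate 1 accounts for 15 of the 19, and it also stood apart on the first principal component of all tested genes. This replicate was the far lowest isolated islet for Atf4 (277.6 FPKM), Trib3 (4.37), Sesn2 (9.88), Eif4ebp1 (14.16), Asns (44.76), Phgdh (12.59), Psat1 (4.72), Shmt2 (7.30), Mthfd2 (17.91), Slc3a2 (53.27), Aars (25.12), Gars (62.55), Qars (20.61) and Tars (20.68). It was the far highest for Atf3 (110.3 FPKM). The gap for Atf4 was small in size, since the other isolated islets lay between 312 and 317 FPKM. In the grafts, day 120 replicate 4 was far highest for Sesn2 (21.43 FPKM), day 120 replicate 1 far lowest for Psph (4.98 FPKM), day 60 replicate 1 far lowest for Cbs (8.54 FPKM) and day 60 replicate 4 far highest for Yars (13.02 FPKM).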

How the results depend on the processing

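No difference of a member changed sign between settings where it had passed. Scaled to endocrine reference genes, which gave day 60 replicate 1 a factor of 0.337, the amino acid genes that fell were 3 at day 60 and 2 at day 120 (6 each as deposited), the synthetases 1 and 0 (8 and 5), the regulators at day 120 5 (8), and the members that rose at day 120 1 (4). Under this scaling 2.84% of all genes fell at day 60, and 1.86% fell and 0.983% rose at day 120. Library weights gave 10 amino acid genes at both times, 13 synthetases at day 60 and 10 at day 120, 7 members that rose at day 60 and 15 called between grafts, though their estimation had not converged. They also called more of all genes: 23.1% fell and 54.0% rose at day 60, and 17.9% fell and 48.7% rose at day 120. Between grafts they called 2874 of the 13433 genes. Weights estimated gene by gene, added after the data had been seen, gave 10 amino acid genes at both times, 10 synthetases at day 120 and 1 member between grafts. With them 20.1% of all genes fell at day 60 and 17.5% at day 120, and 459 genes were called between grafts. Members that rose were 2 at both times after upper-quartile scaling, 2 and 1 after scaling to the sum without hormone and acinar genes and after quantile normalization, and 2 at day 60 with 2 groups in the fit. The shares of all genes that rose were 25.8% and 17.5%, 18.7% and 15.1%, 17.8% and 11.4%, and 23.5%, in that order. Without both isolated islet 1 and day 60 graft 1, 11 and 10 amino acid genes and, at day 120, 8 synthetases fell, where 15.4% of all genes fell at day 60 and 13.5% at day 120. Leaving out 1 library at a time gave, at day 60, 6 to 9 regulators, 5 to 9 amino acid genes, 7 to 8 synthetases and 2 to 6 members that rose, and at day 120 6 to 9, 1 to 9, 3 to 6 and 1 to 6. Over all genes, 7.45% to 14.2% fell and 22.7% to 37.3% rose at day 60. At day 120, 2.96% to 9.81% of all genes fell and 10.4% to 35.5% rose. The replicate block changed no count by over 1.5 times. Between the grafts it called 0 members. With the block 7 regulators, 7 amino acid genes and 7 synthetases fell and 3 members rose at day 60, and 8, 6, 5 and 4 did at day 120. Of all genes, 12.5% fell and 30.7% rose with the block at day 60, and 7.25% fell and 24.4% rose at day 120. With it Nupr1, Lars and Wars lost their call at day 60 and Eif4ebp1 and Nupr1 at day 120, while Aldh18a1 gained one at day 60 and Atf3 and Sesn2 at day 120. Without a known depth, the precision of low genes such as Trib3 in grafts and Cth cannot be stated.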
